A study of Gallus gallus with 12 samples.

Results

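The transcriptomes of liver and abdominal fat were compared in chickens fed a high-fat diet (HFD). The comparison used the 3 HFD liver and the 3 HFD abdominal fat samples, 6 of the 12 samples of the series, and the genes with at least 1 FPKM in all 3 samples of either tissue, 12463 of the 18332 genes in the files. FPKM, the count of sequenced fragments scaled to transcript length and to the number of mapped fragments, is comparable between genes as a level per length. All samples came from Xinghua chickens with dw gene, a dwarf type of a Chinese native breed, labelled as 8 weeks old, so the HFD birds and the normal diet (ND) birds share the growth hormone receptor defect of this type. The methods describe female birds that were 8 weeks old when the diets began and were fed for 2 weeks before slaughter. The HFD held 25% fat and the ND 5% fat. The sequenced HFD birds were those with the higher abdominal fat rate of their group and the sequenced ND birds those with the lower, so that diet and fatness cannot be told apart in any comparison of the diets. Both tissues here were exposed to the same diet, and the 6 ND samples, 3 of each tissue, are given beside them where a value is compared between diets.

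In birds the liver is the main site of fatty acid synthesis from carbohydrate, and fat cells mostly store fatty acids that reach them from outside. The liver packs newly made and recycled lipid into very low density lipoprotein, and lipoprotein lipase on the vessels of fat tissue releases its fatty acids again for uptake, re-esterification to triglyceride and storage in lipid droplets. Mobilisation of that store is started by triglyceride lipases at the droplet surface, and the fatty acids set free are oxidised or turned into ketone bodies elsewhere, mainly in the liver.

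The tissues were far apart. Across genes, which are not independent replicates, log2(FPKM + 1) correlated at 0.985 to 0.987 between HFD liver samples, at 0.984 to 0.986 between HFD abdominal fat samples and at 0.712 to 0.741 between the tissues. The 10 most abundant genes held 25.6% to 28.3% of the summed FPKM in HFD liver, led by the plasma protein ALB, and 9.3% to 9.88% in HFD abdominal fat, led by the fatty acid binding protein FABP4. The 14 tested hepatocyte markers were higher in liver, 12 of them tested through liver only, and the 8 adipocyte markers were higher in abdominal fat, 3 of them tested through abdominal fat only. CPS1, an enzyme of the urea cycle, stayed under 1 FPKM in both. The 15 hepatocyte markers summed to 88.9 to 203 FPKM in HFD abdominal fat, at most 0.23% of the lowest sum in HFD liver, and the 8 adipocyte markers summed to 112 to 209 FPKM in HFD liver, at most 1.3% of the lowest sum in abdominal fat. Different genes led the sums, such as TF in abdominal fat and ALB in liver, so these shares do not measure RNA carried over from the other tissue. Gene by gene the share ran from 0.051% (AHSG) to 4.1% (TF) for hepatocyte markers other than CPS1. For adipocyte markers it ran from 0.032% (FABP4) to 31% (CIDEC). Markers of fibroblasts (8 of 8), endothelium (7 of 7) and smooth muscle (5 of 5) were also higher in abdominal fat. Of the endothelium markers, 5 were called so under all 4 scalings described below. By the rule of the next paragraph, 10.8% of all genes tested were called higher in liver and 33.5% higher in abdominal fat. The 5 skeletal muscle markers in the files summed to 375, 60.8 and 52.3 FPKM in abdominal fat replicates 1 to 3 and to 0.59 to 1.09 FPKM in liver. In whole tissue, fewer cells of a type and less RNA per cell cannot be told apart.

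To be called, a gene needed an adjusted p no higher than 0.05 (limma on log2(FPKM + 1), Benjamini-Hochberg over all genes tested) and an absolute difference on the log2 scale of at least 1. Differences are given throughout as liver minus abdominal fat, so a negative value is higher in abdominal fat. By this rule 1347 genes (10.8%) were called higher in liver and 4181 (33.5%) higher in abdominal fat, 44.4% of the genes tested in either direction. The tissues did not overlap for 81.0% of the genes tested. Genes can also enter the test through the tissue where they are high, which favours a difference: 731 genes entered through liver only and 1882 through abdominal fat only. Among the 9850 genes at 1 FPKM or more in all 6 samples, 774 (7.86%) were called higher in liver and 2759 (28.0%) higher in abdominal fat. The median difference over all genes tested was -0.61 and depended on the scaling of the samples. It was -0.87 with every sample scaled to the same sum, -0.08 with median-ratio scaling and -0.03 with quantile normalization, and the share of calls that were higher in liver was 24.4% as deposited, 18.7%, 42.2% and 43.8%, respectively. For this reason a gene is said to have held when it was called in 1 direction under all 4 scalings, as were 1247 genes (10%) higher in liver and 2440 (19.6%) higher in abdominal fat. Among genes with a symbol, the 10 largest differences towards liver were those of ALB, APOC3, AHSG, FGB, APOA2, FGG, FGA, APOH, LBFABP and ORM1, and the 10 largest towards abdominal fat those of FABP4, FABP3, RBP7, MFAP5, ANXA1, TPPP3, VIM, SSTR2, HOPX and DGAT2.

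Lipid genes were sorted into 12 lists by role. Of 239 symbols, 221 were matched to the files and 204 were tested, 155 of them at 1 FPKM or more in all 6 samples, 29 through liver only and 20 through abdominal fat only. Among those 155 genes, 74 were called higher in liver and 41 higher in abdominal fat, and their median difference was 0.77, against -0.54 over the 9850 genes filtered alike. Of those 9850 genes, 7.86% were called higher in liver and 28.0% higher in abdominal fat, and the counts per list below are to be read against these shares. Over all 204, 103 (50.5%) were called higher in liver, of which 93 held, and 59 (28.9%) higher in abdominal fat, of which 45 held. The shares over all genes tested were 10.8% and 33.5%, so as deposited lipid genes were not called higher in abdominal fat more often than genes at large. This depended on the scaling: calls for abdominal fat that held were 45 of 204 lipid genes, against 2440 of all 12463 genes (19.6%). As deposited, the share called higher in abdominal fat was also below 33.5% for fatty acid synthesis (28.6%), elongation and desaturation (31.2%) and triglyceride synthesis (14.3%). Among members at 1 FPKM or more in all 6 samples, the list medians were 4.52 for bile acid synthesis, 1.6 for lipoprotein assembly and secretion, 1.48 for cholesterol synthesis, -1.45 for the lipid droplet and -2.5 for lipolysis. Over all tested members the median of the lipoprotein list was 6.59, with 9 of its 15 members tested through liver only.

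**Figure D1:**
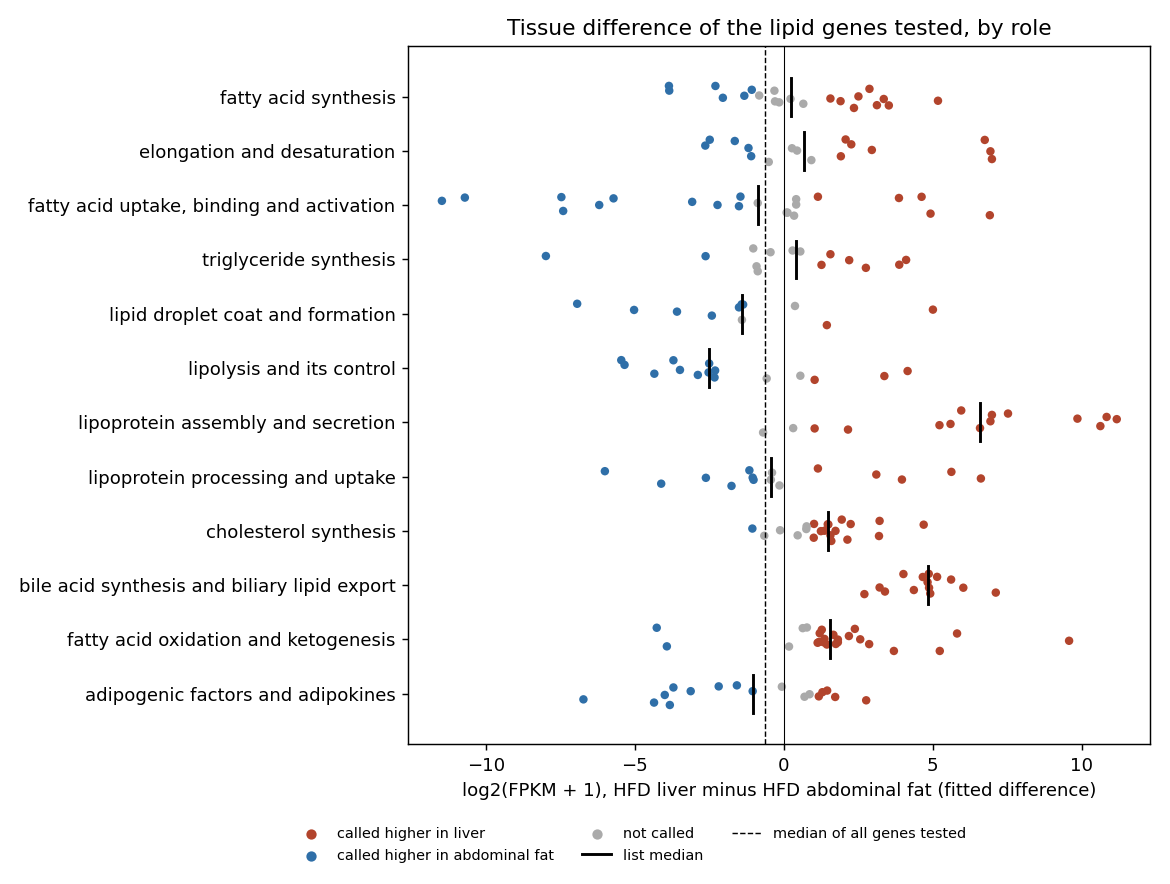
Each point is 1 tested gene of a role list, placed by its fitted difference of log2(FPKM + 1), HFD liver minus HFD abdominal fat (3 samples each); colour gives the call, the short bar the list median and the dashed line the median of all genes tested, -0.61. Bile acid genes lie wholly to the right of 0, most lipolysis and lipid droplet genes to the left, and the lists of fatty acid synthesis and of uptake and binding are spread to both sides.

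As shares of the summed FPKM of a sample, the lists differed by orders of magnitude. Lipoprotein assembly and secretion made up 8.95% to 9.33% of HFD liver and 0.187% to 0.275% of HFD abdominal fat. Fatty acid uptake, binding and activation made up 3.6% to 3.91% of abdominal fat and 0.273% to 0.316% of liver. This list holds FABP4 and FABP3 but leaves out LBFABP, a fatty acid binding protein of liver described below. In each HFD liver sample LBFABP alone was above the summed FPKM of the whole list, 1827, 1663 and 1563 FPKM, so the liver share is understated. The lipid droplet list made up 0.935% to 1.08% of abdominal fat and 0.144% to 0.181% of liver. The genes of lipolysis took 0.628% to 0.757% of abdominal fat and 0.0887% to 0.0945% of liver. Only the shares of the fatty acid synthesis list overlapped between the tissues among the 12 lists, at 0.679% to 0.967% in liver and 0.656% to 0.724% in abdominal fat. Its most abundant gene, THRSP, was at 1849.6 FPKM or more in each of the 6 samples. In abdominal fat THRSP held most of the summed FPKM of the list, at 2594, 2406 and 2746 of 3440, 3156 and 3524 FPKM. In liver it was at 1849.6, 2713 and 2501 of 3929, 5028 and 5538 FPKM. The overlap of the shares therefore cannot be read for the other members.

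**Figure D2:**
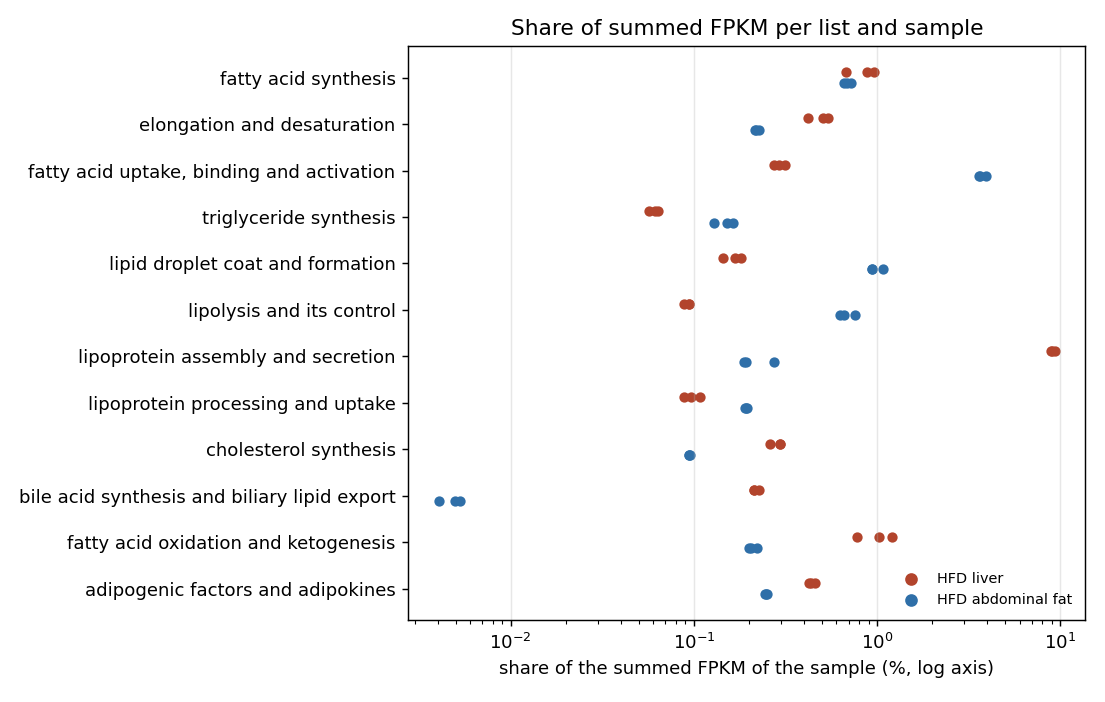
Share of the summed FPKM of each sample (percent, log axis) taken by each role list, 1 point per sample, 3 HFD liver and 3 HFD abdominal fat samples. The lipoprotein assembly list sits near 9% in liver and below 0.3% in abdominal fat. The uptake and binding list, which leaves out LBFABP of liver, is higher in abdominal fat.

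The enzymes that make fatty acids from citrate were higher in liver. ACLY, which cleaves citrate to acetyl-CoA in the cytosol, was at 196, 213 and 394 FPKM in HFD liver replicates 1 to 3 and at 29.1, 26.6 and 29.2 FPKM in HFD abdominal fat replicates 1 to 3 (difference 3.13, SE 0.25, adjusted p = 1.94e-05). ACACA, the carboxylase that forms malonyl-CoA for synthesis, was at 115, 147 and 137 FPKM in liver and 22.5, 20.4 and 24.6 FPKM in abdominal fat (difference 2.51, SE 0.13, adjusted p = 1.61e-06). FASN, the fatty acid synthase, was at 123, 151 and 280.2 FPKM in liver and 51.97, 41.03 and 44.1 FPKM in abdominal fat (difference 1.91, SE 0.29, adjusted p = 0.000548). No liver sample overlapped an abdominal fat sample for these 3 genes, as for 81.0% of all genes tested. Liver replicate 3 was the highest sample for ACLY and FASN. The mitochondrial citrate carrier SLC25A1 was higher in liver at 627, 658 and 674 FPKM, against 75.4, 56.1 and 58.8 FPKM in abdominal fat (difference 3.36, SE 0.13, adjusted p = 4.14e-07), and the NADPH source ME1 was at 81.7, 68.00 and 112 against 16.8, 17.1 and 13.6 FPKM (difference 2.36, SE 0.19, adjusted p = 1.99e-05). The NADPH sources were not all alike, since IDH1 was higher in liver at 205, 233 and 265 against 75.9, 79.9 and 78.5 FPKM (difference 1.57, SE 0.11, adjusted p = 1.03e-05), whereas PGD of the pentose phosphate pathway was higher in abdominal fat, with 11.9, 13.2 and 13.9 FPKM in liver and 61.4, 50.7 and 57.8 FPKM in abdominal fat (difference -2.04, SE 0.11, adjusted p = 2.56e-06). All of these calls held.

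Not every gene of the synthesis list was higher in liver. ACSS2, which makes cytosolic acetyl-CoA from acetate, was at 37.9, 11.1 and 13.8 FPKM in liver and 124, 81.8 and 77.4 FPKM in abdominal fat (difference -2.29, SE 0.43, adjusted p = 0.00178), with liver replicate 1 well above the other liver samples but below every abdominal fat sample. ACACB, the carboxylase of the mitochondrial membrane whose malonyl-CoA restrains fatty acid oxidation in mammals, was at 0.04, 0.1 and 0.14 FPKM in liver and 11.96, 17.3 and 15.6 FPKM in abdominal fat (difference -3.85, SE 0.15, adjusted p = 4.78e-07). ME3, a mitochondrial malic enzyme, was at 0.53, 0.87 and 0.77 and 24.8, 18.4 and 28.8 FPKM. ACACB and ME3 were tested through abdominal fat only.

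Regulators of synthesis were either higher in liver or without a call that held. MLXIPL, the carbohydrate-responsive factor ChREBP, was at 66.98, 76.6 and 81.8 FPKM in liver and 1.6, 0.96 and 0.8 FPKM in abdominal fat (difference 5.18, SE 0.16, adjusted p = 1.92e-07), and was tested through liver only. SCAP, the escort of the SREBP factors, was at 103, 107 and 141 FPKM in liver and 8.86, 9.81 and 8.69 FPKM in abdominal fat (difference 3.53, SE 0.14, adjusted p = 5.29e-07), and INSIG1, which retains SCAP in the endoplasmic reticulum, was at 315, 395 and 650.0 and 51.1, 65.6 and 58.2 FPKM (difference 2.88, SE 0.25, adjusted p = 3.16e-05). Transcript levels of SREBF1, the SREBP that drives lipogenic genes, differed less, at 63.2, 76.2 and 85.9 FPKM in liver and 51.95, 46.1 and 42.8 FPKM in abdominal fat (difference 0.66, SE 0.14, adjusted p = 0.00312), and the gene was called only with median-ratio scaling, where its difference was 1.28. THRSP, a lipogenic protein (Spot 14), was at 1849.6, 2713 and 2501 FPKM in liver and 2594, 2406 and 2746 FPKM in abdominal fat (difference -0.15, SE 0.15, adjusted p = 0.386); the samples overlapped and the sign turned with the scaling, from -1.08 with quantile normalization, where it was called, to 0.48 with median-ratio scaling. In the whole list 18 of 21 tested genes reached 1 FPKM in all 6 samples, of which 8 were called higher in liver and 4 higher in abdominal fat, with INSIG2, MCAT, OXSM, SREBF1, THRSP and TKT (named TKTL1 in RefSeq) not called; the calls of MID1IP1 and NR1H3 for abdominal fat did not hold.

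**Figure D3:**
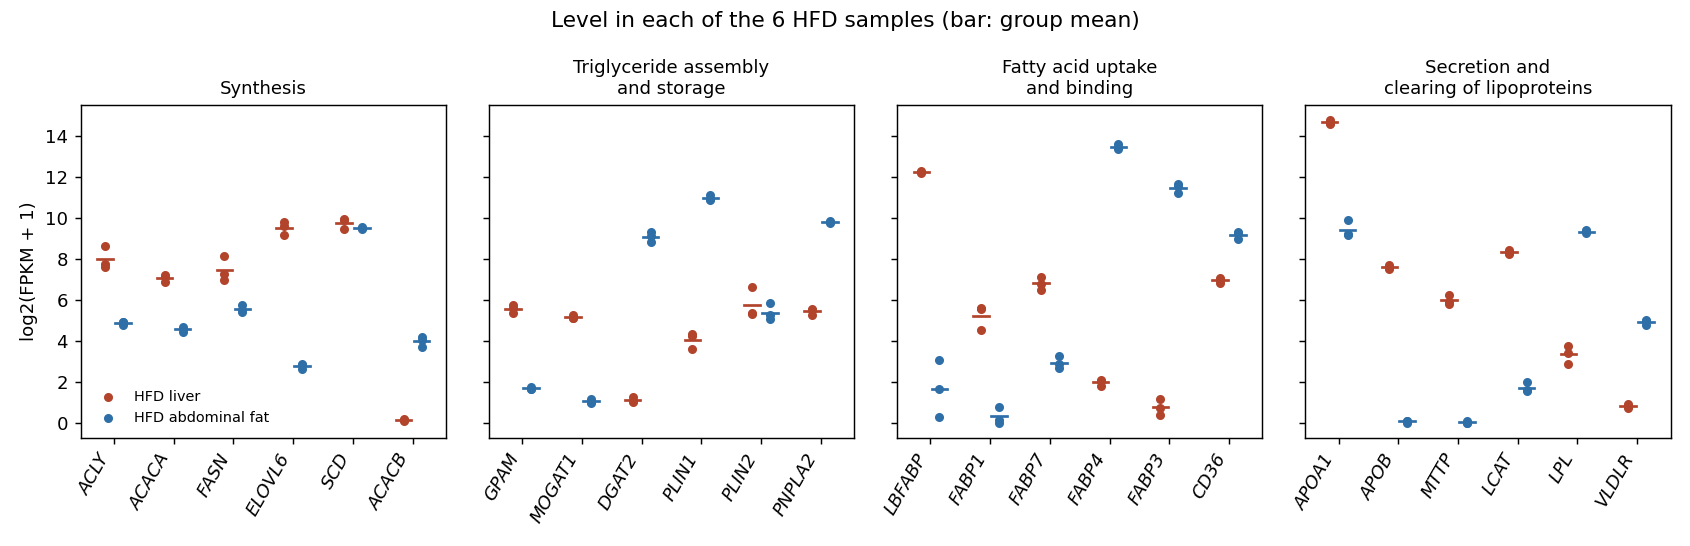
Level of 24 genes in each of the 6 HFD samples, as log2(FPKM + 1), with liver in red and abdominal fat in blue (1 point per sample, bar for the mean of 3), in panels of synthesis, triglyceride assembly and storage, uptake and binding, and secretion and clearing. SCD and PLIN2 overlap between the tissues, while FABP4 and FABP3 lie at the foot of their panel in liver and near its top in abdominal fat.

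The largest differences among genes of elongation and desaturation were towards liver. ELOVL6, which extends palmitate, was at 565, 763 and 899.9 FPKM in liver and 6.18, 5.2 and 5.99 FPKM in abdominal fat (difference 6.75, SE 0.17, adjusted p = 8.38e-08). Among the enzymes for polyunsaturated fatty acids, ELOVL2 was at 136, 142 and 104 FPKM in liver and listed at 0.11, 0 and 0 FPKM in abdominal fat, and FADS6, a desaturase family member, was at 118, 138 and 165 and 0.06, 0.06 and 0.18 FPKM. ELOVL2 and FADS6 were tested through liver only. FADS1 (delta-5 desaturase) was at 88.5, 92.8 and 90.9 FPKM in liver and 10.2, 10.3 and 11.8 FPKM in abdominal fat (difference 2.96, SE 0.10, adjusted p = 2.27e-07), and FADS2 (delta-6 desaturase) at 427, 396 and 426 and 113, 102 and 112 FPKM (difference 1.92, SE 0.09, adjusted p = 1e-06). SCD, the delta-9 desaturase that makes oleate, did not pass the test: it stood at 703, 963 and 967 FPKM in liver and 737, 689 and 713 FPKM in abdominal fat (difference 0.28, SE 0.14, adjusted p = 0.0919). Its difference was positive under the 4 scalings, between 0.05 and 0.91, and was not called under any of them. SCD and ELOVL6, which act one after the other on newly made palmitate, thus differed in their tissue pattern.

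In abdominal fat the higher members of the list were SCD5, at 11.8, 9.99 and 11.2 FPKM against 2.25, 3.82 and 2.61 FPKM in liver (difference -1.64, SE 0.16, adjusted p = 6.4e-05), the elongases ELOVL1 and ELOVL7, and the dehydratases HACD1 and HACD4. Of these, ELOVL7 and HACD1 held, while ELOVL1, HACD4 and SCD5 were not called under every scaling. ELOVL7, HACD1 and HACD4 were tested through abdominal fat only. Among 11 members at 1 FPKM or more in all 6 samples, 5 were called higher in liver and 2 higher in abdominal fat; HACD2, HACD3, SCD and TECR were not called, and ELOVL3 and ELOVL4 stayed below the limit for testing.

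Uptake and intracellular binding held FABP4 and FABP3, the genes with the largest differences towards abdominal fat among the tested genes with a symbol. FABP4, the adipocyte fatty acid binding protein, was at 10331, 11063 and 12425 FPKM in abdominal fat and 3.3, 3.16 and 2.48 FPKM in liver (difference -11.47, SE 0.12, adjusted p = 1.27e-08). FABP3, the heart-type protein, was at 3173, 2969 and 2351 FPKM in abdominal fat and 0.63, 1.25 and 0.31 FPKM in liver (difference -10.70, SE 0.21, adjusted p = 2.95e-08). FABP3 is also a gene of muscle, whose markers CKM and ACTA1 were at 46.98, 0.05 and 0.13 FPKM and at 248, 57.8 and 50.04 FPKM in the same abdominal fat samples, and their part in this difference was not tested. FABP5 was at 245, 271 and 260.2 FPKM in abdominal fat and 3.05, 5.81 and 3.37 FPKM in liver (difference -5.71, SE 0.20, adjusted p = 2.79e-07). Liver held another set of the same family. LBFABP, the liver basic fatty acid binding protein of birds and other vertebrates outside the mammals, which is not on the list but is among the 10 genes with the largest difference towards liver, was at 4596, 4931 and 4851 FPKM in liver and 2.1, 0.23 and 7.35 FPKM in abdominal fat (difference 10.56, SE 0.60, adjusted p = 3.12e-06). FABP1 was at 47.5, 22.1 and 46.01 FPKM in liver and listed at 0.68, 0.11 and 0 FPKM in abdominal fat, and FABP7, best known from brain, was at 139, 109.6 and 87.2 and 8.65, 5.36 and 6.15 FPKM (difference 3.87, SE 0.21, adjusted p = 2.61e-06). FABP6 was at 1.89 to 4.54 FPKM in both tissues and was not called, and FABP2 stayed under the limit. FABP1, FABP3 and LBFABP were tested through the tissue where they are high.

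The membrane side of uptake was likewise divided. CD36, the fatty acid translocase, was at 616, 503 and 627 FPKM in abdominal fat and 111, 134 and 126 FPKM in liver (difference -2.22, SE 0.12, adjusted p = 2.56e-06). CAV1 and CAV2, the coat proteins of caveolae, and CAVIN1, which shapes them, were at 417 to 462, 372 to 417 and 945 to 1400 FPKM in abdominal fat and at 1.51 to 1.92, 1.07 to 1.39 and 13.03 to 18.2 FPKM in liver, with differences of -7.40, -7.46 and -6.19. Caveolae are also abundant in endothelium, whose 7 markers summed to 556 to 575 FPKM in abdominal fat and 43.3 to 69.3 FPKM in liver; their part in these differences was not tested. SLC27A2, a transport protein with acyl-CoA synthetase activity on very long chains, was at 267, 245 and 218 FPKM in liver and 0.94, 0.9 and 1.23 FPKM in abdominal fat (difference 6.92, SE 0.12, adjusted p = 1.79e-08), and was tested through liver only.

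The acyl-CoA synthetases, which activate fatty acids, split by isoform. ACSL1 was at 709.8, 433 and 604 FPKM in abdominal fat and 162, 245 and 202 FPKM in liver (difference -1.50, SE 0.22, adjusted p = 0.000447), a call that did not hold under every scaling, and ACSL4 was at 21.8, 20.2 and 30.3 and 1.72, 1.84 and 2.31 FPKM (difference -3.07, SE 0.17, adjusted p = 2.73e-06). ACSL5 went the other way, at 88.1, 77.5 and 69.6 FPKM in liver and 2.6, 1.63 and 2.42 FPKM in abdominal fat (difference 4.63, SE 0.15, adjusted p = 2.52e-07). Of 16 list members at 1 FPKM or more in all 6 samples, 3 were called higher in liver and 8 higher in abdominal fat. The 6 members that were tested and not called were ACSBG2, ACSL3, ACSL6, DBI, FABP6 and SLC27A1, and ACSBG1 stayed under the limit with FABP2.

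Triglyceride synthesis was not concentrated in 1 tissue, and enzymes of its first step lay in both. GPAM, the mitochondrial glycerol-3-phosphate acyltransferase of the first step, was at 46.9, 52.1 and 39.5 FPKM in liver and 2.35, 2.09 and 2.1 FPKM in abdominal fat (difference 3.88, SE 0.13, adjusted p = 2.29e-07). GPAT3, an acyltransferase of the endoplasmic reticulum for the same step, was at 5.88, 12.1 and 7.58 FPKM in liver and 67.7, 50.9 and 49.5 FPKM in abdominal fat (difference -2.62, SE 0.24, adjusted p = 4.15e-05). DGAT2, which adds the last fatty acid, was at 556, 448 and 628 FPKM in abdominal fat and 1.1, 1.00 and 1.35 FPKM in liver (difference -7.98, SE 0.14, adjusted p = 2.22e-08). DGAT2 was thus one of the 10 genes with the largest difference towards abdominal fat among the tested genes with a symbol, with a mean 473-fold higher. DGAT1, the other enzyme of this step in mammals, was not matched in the files and was not analysed here. MOGAT1, which acylates monoacylglycerol, was at 33.6, 37.02 and 33.9 FPKM in liver and 1.26, 0.96 and 1.01 FPKM in abdominal fat (difference 4.11, SE 0.11, adjusted p = 9.36e-08), and MOGAT2 was at 0.19 FPKM or lower in all 6 samples. MOGAT1 was tested through liver only.

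Of the listed enzymes between these steps, AGPAT3, AGPAT4 and LPIN2 were called higher in liver, and no enzyme was called higher in abdominal fat. AGPAT2, the main lysophosphatidic acid acyltransferase of mammalian fat cells, was at 19.1, 21.00 and 26.1 FPKM in liver and 16.9, 17.02 and 18.8 FPKM in abdominal fat (difference 0.30, SE 0.13, adjusted p = 0.0691). AGPAT3 was higher in liver, at 52.1, 60.6 and 58.1 against 11.4, 11.6 and 11.9 FPKM (difference 2.2, SE 0.10, adjusted p = 9e-07). Among the phosphatidate phosphatases, LPIN2 was at 42.9, 13.8 and 38.6 FPKM in liver and 3.85, 3.03 and 3.24 FPKM in abdominal fat (difference 2.76, SE 0.39, adjusted p = 0.000402), and LPIN1 was at 5.45, 5.9 and 22.02 and 34.1, 13.4 and 15.9 FPKM (difference -1.02, SE 0.54, adjusted p = 0.12), where liver replicate 3 and abdominal fat replicate 1 stood above the rest of their groups and the groups overlapped. Glycerol kinase (GK in the files, GK2 in RefSeq), which makes glycerol-3-phosphate from glycerol, was at 87.7, 109 and 91.4 FPKM in liver and 31.1, 32.1 and 31.5 FPKM in abdominal fat (difference 1.57, SE 0.11, adjusted p = 8.54e-06). Of the 12 list members at 1 FPKM or more in all 6 samples, 5 were called higher in liver and 2 higher in abdominal fat, all of which held; AGPAT2, AGPAT5, GK5, GPAT2, GPAT4 and LPIN1 were tested and not called, and AGPAT1 stayed under the limit.

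Proteins of the lipid droplet surface differed between the tissues, with most perilipins higher in abdominal fat and HSD17B13 higher in liver. PLIN1, the perilipin that guards the droplet of fat cells, was at 2202, 1877 and 1953 FPKM in abdominal fat and 10.96, 17.6 and 18.9 FPKM in liver (difference -6.93, SE 0.19, adjusted p = 1.22e-07). PLIN4 was at 2091, 1702 and 1585 and 43.8, 48.9 and 72.8 FPKM (difference -5.02, SE 0.20, adjusted p = 5.64e-07), and FITM2, which helps droplets to bud from the endoplasmic reticulum, was at 29.4, 28.7 and 27.6 and 1.13, 1.46 and 1.89 FPKM (difference -3.58, SE 0.13, adjusted p = 4.09e-07). CIDEC, which fuses droplets, was at 482, 349.7 and 374 FPKM in abdominal fat and 43.7, 86.8 and 107 FPKM in liver (difference -2.41, SE 0.31, adjusted p = 0.000266). Its highest liver value was 31% of its lowest abdominal fat value, and for the other 7 adipocyte markers this share ran from 0.032% (FABP4) to 4.6% (PLIN4). HSD17B13, a droplet protein of liver in mammals (the files give this gene as HSD17B11), was at 524, 555 and 522 FPKM in liver and 18.99, 13.4 and 14.7 FPKM in abdominal fat (difference 5.01, SE 0.13, adjusted p = 9.6e-08).

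PLIN2, the perilipin of most other cell types, did not separate the tissues, at 37.8, 39.7 and 97.8 FPKM in liver and 36.6, 32.01 and 56.6 FPKM in abdominal fat (difference 0.38, SE 0.38, adjusted p = 0.391). Replicate 3 was the highest of each tissue for PLIN2 and also for PLIN5, a perilipin of oxidative tissues, which was at 1.6, 1.78 and 3.99 FPKM in liver and 4.05, 3.53 and 28.01 FPKM in abdominal fat (difference -1.40, SE 0.69, adjusted p = 0.099). With the replicate number as a block PLIN5 was called higher in abdominal fat (adjusted p = 0.0138, limma). Of 10 list members at 1 FPKM or more in all 6 samples, 2 were called higher in liver and 6 higher in abdominal fat, and the calls of CIDEA and RAB18 did not hold.

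Most lipolysis genes were higher in abdominal fat, and they included enzymes, a cofactor and inhibitors. PNPLA2, the adipose triglyceride lipase, was at 873, 866 and 906 FPKM in abdominal fat and 37.6, 45.3 and 44.96 FPKM in liver (difference -4.34, SE 0.10, adjusted p = 5.05e-08). Its coactivator ABHD5 was at 69.2, 68.5 and 66.4 and 6.72, 7.41 and 11.6 FPKM (difference -2.88, SE 0.18, adjusted p = 5.67e-06), and its inhibitor G0S2 was at 1355, 924 and 913 and 245, 145 and 167 FPKM (difference -2.52, SE 0.23, adjusted p = 3.84e-05). Lipase and inhibitor were therefore high in the same tissue. PNPLA3, a related droplet protein, was at 999.5, 880.3 and 769 FPKM in abdominal fat and 63.6, 107 and 69.4 FPKM in liver (difference -3.48, SE 0.20, adjusted p = 3.54e-06). ADORA1, the adenosine receptor that restrains lipolysis in mammalian fat cells, was at 58.5, 46.9 and 33.3 FPKM in abdominal fat and 0, 0.13 and 0.03 FPKM in liver, and PRKAR2B, a regulatory subunit of protein kinase A, was at 121, 98.9 and 75.00 and 1.6, 2.04 and 0.76 FPKM; both were tested through abdominal fat only. LIPA, the lysosomal lipase, was at 55.1, 73.5 and 79.6 FPKM in abdominal fat and 12.02, 10.1 and 11.9 FPKM in liver (difference -2.50, SE 0.15, adjusted p = 4.9e-06). Of the 9 leukocyte markers in the files, 5 (55.6%) were called higher in abdominal fat, against 33.5% of all genes tested. They summed to 2541 to 2804 FPKM there and 409 to 763 FPKM in liver, most of it CD74, at 2265 to 2555 and 364 to 637 FPKM. CD3E, CD4, MARCO and PTPRC were not called, and CD3E was the higher in liver, at 10.5 to 18.5 against 6.19 to 7.96 FPKM. The part of leukocytes in the difference of LIPA was not tested.

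Glycerol channels and a fatty acid receptor also separated the tissues. AQP3, an aquaglyceroporin, was at 137, 94.7 and 101 FPKM in abdominal fat and 6.66, 10.9 and 5.7 FPKM in liver (difference -3.70, SE 0.24, adjusted p = 6.16e-06), and AQP9, through which mammalian liver takes up glycerol, was at 76.3, 102 and 87.7 FPKM in liver and 7.91, 7.54 and 7.24 FPKM in abdominal fat (difference 3.38, SE 0.12, adjusted p = 3.85e-07). AQP7, the channel of mammalian fat cells, was at 0.08 FPKM or lower in all 6 samples. FFAR4, a receptor for long chain fatty acids, was at 16.8, 16.5 and 20.1 FPKM in liver and 0.07, 0.03 and 0.05 FPKM in abdominal fat (difference 4.16, SE 0.12, adjusted p = 1.15e-07). Of the phosphodiesterases that break down cyclic AMP, PDE3A was higher in abdominal fat (7.49, 8.07 and 8.74 against 0.76, 0.92 and 0.86 FPKM) and PDE3B higher in liver (11.6, 13.9 and 19.6 against 5.29, 6.72 and 8.16 FPKM), the latter by 1.04, which did not hold. FFAR4 was tested through liver only and PDE3A through abdominal fat only. The list had 11 members at 1 FPKM or more in all 6 samples, of which 2 were called higher in liver and 7 higher in abdominal fat; MGLL was not called as deposited (it was called higher in liver only with median-ratio scaling, by 1.17), and ADRB1 and ADRB3 stayed under the limit.

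Genes of lipoprotein assembly and secretion were higher in liver. APOB, the structural protein of very low density lipoprotein, was at 204, 182 and 186 FPKM in liver and listed at 0.05, 0 and 0.07 FPKM in abdominal fat. MTTP, which loads lipid onto APOB, was at 54.9, 74.4 and 58.1 FPKM in liver and listed at 0.04, 0 and 0 FPKM in abdominal fat, and TM6SF2, which acts in the lipidation of the same particle in mammals, was at 110.0, 105 and 98.8 and 0.17, 0 and 0.12 FPKM. All 3 genes were tested through liver only. APOC3, an inhibitor of lipoprotein lipase in mammals, was at 11135, 11936 and 10958 FPKM in liver and 6.63, 0.15 and 12.4 FPKM in abdominal fat (difference 11.18, SE 0.81, adjusted p = 1.08e-05), and APOA2, a protein of high density lipoprotein, was at 8229.7, 8361 and 8351 and listed at 5.68, 0 and 12.97 FPKM. APOH was at 3317, 3046 and 2996 FPKM in liver and 1.15, 0.28 and 1.79 FPKM in abdominal fat, and APOA4 at 1703, 2157 and 2313 and 2.34, 0.09 and 1.94 FPKM. APOA2, APOA4, APOC3 and APOH were also tested through liver only. For APOC3 and APOA2 abdominal fat replicate 2 was lowest and replicate 3 highest.

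APOA1, the main protein of high density lipoprotein, stood apart from the other apolipoproteins in abdominal fat. It was at 28148, 24467 and 25186 FPKM in liver and 575, 592 and 951 FPKM in abdominal fat (difference 5.23, SE 0.20, adjusted p = 4.08e-07), so that the liver mean was 36.7-fold higher while abdominal fat still held the gene at a level above that of LPL in 1 of 3 samples. Of the hepatocyte markers, ALB was at 23.2, 0.86 and 38.9 FPKM in the same abdominal fat samples, at most 0.062% of its lowest liver value, and TF, the transferrin gene, was at 78.9 to 167 FPKM, at most 4.1%; the part of liver RNA in the APOA1 values was not tested. In mammals APOA1 is made in liver and intestine, and in birds it is known to be made in many peripheral tissues as well. APOV1, the apolipoprotein of laying hens, was at 0.26 FPKM or lower in all 6 samples and was not tested. Of 6 list members at 1 FPKM or more in all 6 samples, 4 (APOA1, APOF, MIA2 and P4HB) were called higher in liver and 0 higher in abdominal fat, and the call of P4HB, a subunit of the transfer complex with other tasks in every cell, did not hold. SAR1B and SURF4 of the general secretory pathway were not called, at 64.5 to 103 and 39.7 to 84.2 FPKM over both tissues.

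Genes that process lipoproteins in the circulation were divided between the tissues. LPL, which releases fatty acids from triglyceride-rich particles, was at 670.0, 610.5 and 645 FPKM in abdominal fat and 9.66, 12.2 and 6.16 FPKM in liver (difference -6.00, SE 0.21, adjusted p = 3.18e-07). VLDLR, a receptor for such particles, was at 30.5, 31.1 and 26.4 FPKM in abdominal fat and 0.62, 0.86 and 0.78 FPKM in liver (difference -4.11, SE 0.12, adjusted p = 1.25e-07), and PLTP, the phospholipid transfer protein, was at 23.8, 16.9 and 14.4 and 2.34, 2.1 and 1.89 FPKM (difference -2.61, SE 0.18, adjusted p = 9.31e-06). VLDLR was tested through abdominal fat only. Other secreted factors were higher in liver. LCAT, which esterifies cholesterol in plasma, was at 298, 349 and 312 FPKM in liver and 2.02, 1.94 and 2.9 FPKM in abdominal fat (difference 6.62, SE 0.14, adjusted p = 3.53e-08). CETP, the cholesteryl ester transfer protein, was at 20.95, 33.1 and 10.6 FPKM in liver and 0.42, 0.14 and 0.38 FPKM in abdominal fat, and was tested through liver only. The lipase LPL and its inhibitor APOC3 were therefore highest in opposite tissues, whereas ANGPTL4, a further LPL inhibitor, was at 11.3, 41.98 and 10.4 FPKM in liver and 13.2, 26.2 and 19.8 FPKM in abdominal fat (difference -0.14, SE 0.51, adjusted p = 0.815), with overlapping groups.

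SCARB1, a receptor for high density lipoprotein, was not called, at 11.2, 11.2 and 9.06 FPKM in liver and 15.96, 14.2 and 13.2 FPKM in abdominal fat (difference -0.43, SE 0.13, adjusted p = 0.0158). LRP1 and ABCA1 were called higher in abdominal fat by 1.01 and 1.15 on the log2 scale, and LMF1, which matures LPL, higher in liver by 1.15; none of these 3 calls held. Among 11 members at 1 FPKM or more in all 6 samples, 2 were called higher in liver and 6 higher in abdominal fat. ABCG1, GPIHBP1, LIPG and LRP8 stayed under the limit.

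Genes of cholesterol synthesis were mostly higher in liver. HMGCS1, which condenses the first intermediates, was at 259.8, 236 and 383 FPKM in liver and 8.86, 10.9 and 10.6 FPKM in abdominal fat (difference 4.70, SE 0.19, adjusted p = 5.79e-07). ACAT2, which makes acetoacetyl-CoA, was at 134, 139 and 267 FPKM in liver and 18.8, 16.7 and 17.7 FPKM in abdominal fat (difference 3.20, SE 0.26, adjusted p = 1.88e-05), and the isomerase IDI1 (IDI2 in RefSeq) was at 133, 127 and 146 and 10.9, 14.7 and 15.5 FPKM (difference 3.22, SE 0.14, adjusted p = 9.45e-07). SREBF2, the factor that drives this pathway, was at 65.7, 53.1 and 48.7 FPKM in liver and 56.4, 62.2 and 62.2 FPKM in abdominal fat (difference -0.12, SE 0.13, adjusted p = 0.421), and its sign turned with the scaling. All 21 tested members were at 1 FPKM or more in all 6 samples, and 15 were called higher in liver, with a median of 1.48 against -0.54 over the genes filtered alike. HSD17B7 was the 1 member called higher in abdominal fat, by -1.05, a call lost under quantile and median-ratio scaling and without liver replicate 2 or abdominal fat replicate 1. DHCR7, LBR, SOAT1 and SREBF2 were among the members not called.

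Conversion of cholesterol to bile acids and its export into bile were higher in liver throughout. CYP7A1, the rate-limiting enzyme of bile acid synthesis, was at 70.3, 59.6 and 67.3 FPKM in liver and 0.03, 0.03 and 0 FPKM in abdominal fat, and CYP27A1, of the alternative route, at 476, 425 and 489.8 and 2.51, 2.2 and 2.33 FPKM (difference 7.12, SE 0.10, adjusted p = 1.27e-08). BAAT, which conjugates bile acids, was at 68.9, 91.3 and 76.03 FPKM in liver and 0.48, 0.48 and 0.89 FPKM in abdominal fat. All 14 tested members were called higher in liver and held, 8 of them tested through liver only, and among the 6 at 1 FPKM or more in all samples 6 were called.

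Most genes of the fatty acid oxidation and ketogenesis list were higher in liver. OXCT1, the transferase that lets tissues other than liver burn ketone bodies, was at 36.9, 38.95 and 39.00 FPKM in abdominal fat and 1.49, 1.55 and 1.75 FPKM in liver (difference -3.92, SE 0.10, adjusted p = 7.41e-08). BDH1, the dehydrogenase that interconverts the main ketone bodies, was at 62.8, 62.3 and 86.2 FPKM in abdominal fat and 2.53, 2.36 and 3.21 FPKM in liver (difference -4.26, SE 0.16, adjusted p = 4.32e-07). OXCT1 and BDH1 were the members of this list called higher in abdominal fat, and both held. ACAT1, a thiolase of both the making and the use of ketone bodies, was higher in liver, at 441, 554 and 626 against 108, 97.3 and 98.9 FPKM (difference 2.39, SE 0.14, adjusted p = 3.35e-06).

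For oxidation itself, EHHADH, the peroxisomal bifunctional enzyme, was at 181, 200.3 and 204 FPKM in liver and 3.84, 3.45 and 5.42 FPKM in abdominal fat (difference 5.24, SE 0.15, adjusted p = 1.38e-07). CPT1A, which admits fatty acids to mitochondria, was at 75.98, 75.2 and 41.9 FPKM in liver and 23.9, 29.6 and 25.7 FPKM in abdominal fat (difference 1.21, SE 0.23, adjusted p = 0.00208), and this call was lost with the samples scaled to 1 sum. PPARA, the receptor that drives these genes, was at 36.1, 44.1 and 30.3 FPKM in liver and 1.56, 1.72 and 2.41 FPKM in abdominal fat (difference 3.70, SE 0.17, adjusted p = 1.15e-06). Of 22 list members at 1 FPKM or more in all 6 samples, 17 were called higher in liver and 2 higher in abdominal fat, and their median was 1.41. HADH, at 102, 86.9 and 89.5 FPKM in liver and 60.8, 59.7 and 57.03 FPKM in abdominal fat, and the carnitine carrier SLC25A20 were not called.

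Adipogenic factors and adipokines were divided. Of the 17 tested members of this list, 9 were called higher in abdominal fat and 5 higher in liver. PPARG, the receptor that drives adipogenesis, was at 36.9, 27.1 and 33.4 FPKM in abdominal fat and 0.43, 0.57 and 0.94 FPKM in liver (difference -4.35, SE 0.16, adjusted p = 4.38e-07), and the adipokine ADIPOQ (adiponectin) at 151, 138 and 181 and 0.27, 0.72 and 0.49 FPKM (difference -6.72, SE 0.15, adjusted p = 4.93e-08). EBF1, EBF2, EBF3 and ZNF423, factors of the preadipocyte and fat cell lineage, were at 11.5 to 19.1 FPKM in abdominal fat and at 1.27 FPKM or lower in liver. These 6 genes were tested through abdominal fat only. The C/EBP factors were split, with CEBPA at 367, 279 and 272 FPKM in abdominal fat and 52.3, 61.7 and 90.1 FPKM in liver (difference -2.18, SE 0.21, adjusted p = 5.6e-05) and with CEBPB and CEBPD, which act early in adipogenesis of mammals, higher in liver by 1.46 and 1.73.

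Not all genes known as adipokines followed. RARRES2 (chemerin) was at 1887, 1988 and 1761 FPKM in liver and 284, 287 and 253 FPKM in abdominal fat (difference 2.77, SE 0.09, adjusted p = 2.63e-07). RBP4A, a plasma retinol carrier gene that was picked after its values were seen, was at 2041, 1912 and 2102 FPKM in liver and 1.15, 0.14 and 1.95 FPKM in abdominal fat, while the gene on the list, matched to RBP4B, stayed under 1 FPKM. RBP4A was tested through liver only. Among the 11 list members at 1 FPKM or more in all 6 samples, 5 were called higher in liver and 3 higher in abdominal fat, with a median difference of 0.87. Of all genes filtered alike, 7.86% were called higher in liver and 28.0% higher in abdominal fat. The calls of RXRG, ADIPOR1 and ADIPOR2 did not hold. KLF15, NAMPT and STAT5A (STAT5B in the files) were not called as deposited, and KLF5 and LEPR stayed under the limit.

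The same tissue comparison in the ND birds, which share no samples with the HFD birds, called 1249 of 12450 genes (10%) higher in liver and 4983 (40.0%) higher in abdominal fat. Over the 12201 genes tested on both diets, 1112 of the 1307 genes higher in liver on HFD were also among the 1223 on ND, 3835 of the 4115 higher in abdominal fat on HFD were among the 4913 on ND, and 0 were called in opposite directions. Whether a tissue difference itself differed between the diets was tested as the interaction of tissue and diet in all 12 samples. With the same limit on the adjusted p, it was called for 1 of 12712 genes (0.00787%), and 1798 genes (14.1%) had an unadjusted p under 0.05 (limma). ND abdominal fat replicate 2 entered these comparisons, with hepatocyte markers at 0.909% of its summed FPKM, against 0.0787% and 0.082% in the other ND abdominal fat samples. The SE of the interaction was 0.93 for APOB and 2.14 for ALB, so for such liver genes a difference between the diets could be missed. Without that sample 6 genes were called. No tissue difference described above was shown to be particular to HFD, and none was shown to be equal on both diets.

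The 1 gene called in the fit of all 12 samples was GPAM. It was at 46.9, 52.1 and 39.5 FPKM in HFD liver and 13.8, 17.96 and 17.1 FPKM in ND liver, and at 2.35, 2.09 and 2.1 FPKM in HFD abdominal fat and 3.32, 3.39 and 2.83 FPKM in ND abdominal fat. Every HFD liver sample was above every ND liver sample, and every HFD abdominal fat sample was below every ND abdominal fat sample. Because GPAM was picked by a test on these same values, this separation adds no support. The tissue difference was 3.88 on HFD and 2.04 on ND, and the difference between them was 1.84 (SE 0.19, adjusted p = 0.0112, limma). With the replicate number of each diet as a block the adjusted p was 0.154. Leaving out each of the 12 samples in turn gave 1.73 to 1.95 with adjusted p between 0.0122 and 0.0692, and the call was lost without HFD liver replicate 1 or 2, HFD abdominal fat replicate 2 or 3, or ND abdominal fat replicate 1.

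DGAT2, the fat-side enzyme of the same pathway, was at 556, 448 and 628 FPKM in HFD abdominal fat and 65.4, 424 and 125 FPKM in ND abdominal fat, and at 1.35 FPKM or lower in all 6 liver samples. Its tissue difference was -7.98 on HFD and -6.28 on ND, and the difference between the diets was -1.69 (SE 0.69, adjusted p = 0.324, limma). ND abdominal fat replicate 2 was the sample close to the HFD values, and why it was high for DGAT2 was not tested. In that sample the hepatocyte markers took 0.909% of the summed FPKM, against 0.0787% and 0.082% in the other ND abdominal fat samples. When each of the 12 samples was left out in turn, DGAT2 was called only without ND abdominal fat replicate 2. Its difference was then -2.43 (adjusted p = 0.0325, limma), and 6 genes were called. MOGAT1 was at 74.99, 75.8 and 75.1 FPKM in ND liver beside 33.6, 37.02 and 33.9 FPKM in HFD liver, and its difference between the diets of -0.98 was not called (adjusted p = 0.143, limma).

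**Figure D4:**
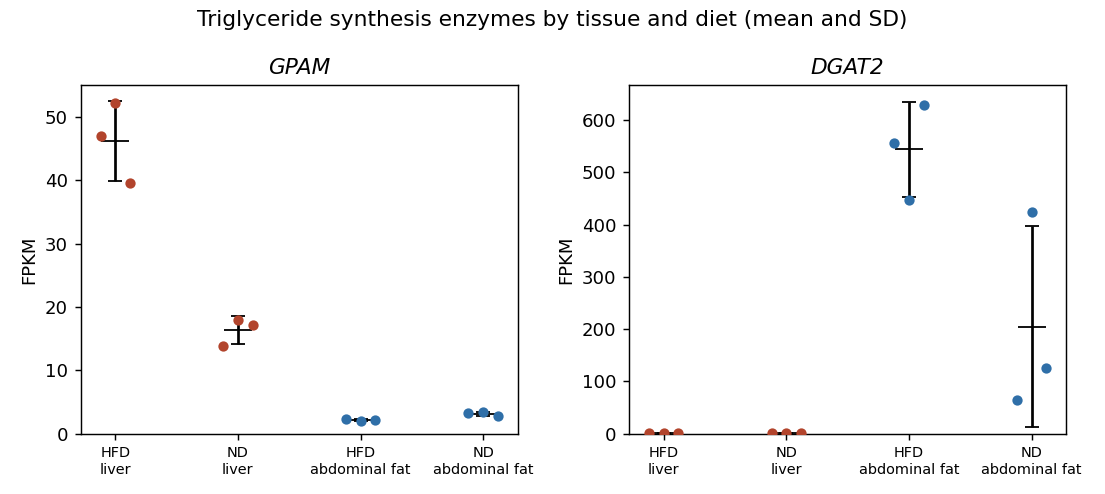
FPKM of GPAM and DGAT2 in each sample of HFD liver, ND liver, HFD abdominal fat and ND abdominal fat (points), with the mean and SD of 3 samples. GPAM is at 39.5 to 52.1 FPKM in HFD liver and at 18.0 FPKM or lower elsewhere, and DGAT2 is near 1 FPKM in liver on both diets.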

How the data were processed

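The authors sequenced RNA of liver and abdominal fat on the BGISEQ-500 platform and deposited FPKM values per gene and sample, rounded to 2 decimals. The submitters' processing notes name HISAT2 2.0.4, Bowtie2 2.2.5 and RSEM 1.2.12; the genome build is not given in the sources used here. Depth is unknown. Of 578 low values, 25.4% lay within 0.1 of a whole multiple of the gene's lowest value above 0 in the 12 samples, against 20% for evenly spread values. The value of a single read is not known. Columns other than FPKM were not used. 

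Samples were grouped by their labels, 3 per tissue and diet. Values were transformed as log2(FPKM + 1), which understates differences of low genes, and compared with limma 3.58.1 in R 4.3.3 (eBayes with trend, two-sided, Benjamini-Hochberg) in the 6 HFD samples, with no block. An exact permutation test of 3 against 3 cannot go below 0.1. In simulated data both groups had the HFD abdominal fat means, and only 200 genes were changed. Of genes changed by 1, 2 and 3 on the log2 scale, 40%, 94% and 98% were called, with 4 to 5 false calls among 12044 to 12056 genes. A change of 1 lies at the threshold itself. In the real comparison 44.4% of genes were called and the counts moved with the scaling, so the simulation does not give its rate of false calls. Same-numbered HFD liver and abdominal fat samples deviated together (correlations 0.281, 0.213 and 0.289 over 9850 genes; other pairs -0.206 to -0.053). The methods take both tissues from the same 3 birds, and the numbers were therefore treated as pairs in an alternative with the replicate number as a block. In ND birds the correlations were 0.313, 0.07 and 0.257.

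Gene symbols follow RefSeq, in which 15244 of 18332 identifiers were found. Members and lists were chosen with earlier results of these data known. Named were 32 core lipid genes, the 3 called genes with the largest difference in each direction per list, the 10 largest over all genes, list members not called, marker genes and genes past the interaction threshold; others are named inside counts. Some genes that enter the counts are not reported here by name. Alternatives were another pseudocount, other filters, scalings and thresholds, the block, a fit of all 12 samples, no trend and leaving out each sample.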

Additional observations from a re-analysis of the deposited data

Results flagged for a closer look

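GPAM, the acyltransferase of the first step of triglyceride synthesis, had a larger tissue difference on HFD than on ND. The difference between the diets was 1.84 on the log2(FPKM + 1) scale (SE 0.19, adjusted p = 0.0112, limma interaction over 12 samples). It was singled out because the tissue contrast itself differed between the diets by that test, the 1 gene of 12712 to do so, and in the blocked fit, which pairs same-numbered samples of a diet, its adjusted p was 0.154.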

How the results depend on the processing

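The FPKM table gives no depth, so the precision of low genes rests on the spread of 3 birds per tissue. With a filter of 1 FPKM in all 6 samples, 774 genes were called higher in liver and 2759 higher in abdominal fat, as fewer genes were tested. With quantile normalization 2565 and with median-ratio scaling 2667 genes were called higher in abdominal fat, against 4181 as deposited; these scalings moved the median of all genes by 0.58 and 0.54. Leaving out each HFD sample in turn gave 1329 to 1370 genes higher in liver and 4040 to 4322 higher in abdominal fat, and 101 to 103 and 56 to 60 of the lipid role genes. Of the 42 lipid role genes not called as deposited, 14 were called higher in liver with median-ratio scaling, 10 higher in liver and 1 (THRSP) higher in abdominal fat with quantile normalization, and 4 higher in abdominal fat with the samples scaled to 1 sum. With the replicate number as a block, 1357 genes were called higher in liver and 4194 higher in abdominal fat; among the genes of the role and marker lists it changed the calls of PLIN5 and the muscle marker TNNT3. The interaction of tissue and diet was called for 0 to 6 genes when each of the 12 samples was left out, and with the block for 1 gene, CASP14 in place of GPAM; the cause was not tested. No call among the 91 genes followed through the alternatives reversed its direction.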

Other observations

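Outside the lipid lists, several genes of abdominal fat were as far from liver as the storage genes. RBP7, a retinol binding protein of fat cells and endothelium in mammals, was at 2524, 2016 and 2139 FPKM in HFD abdominal fat and at 1.30, 0.56 and 1.10 FPKM in HFD liver (difference -10.14, SE 0.17, adjusted p = 1.56e-08, limma). The somatostatin receptor SSTR2 was at 296, 311 and 232 FPKM in abdominal fat and at 0.13, 0.03 and 0.08 FPKM in liver (difference -8.01, SE 0.13, adjusted p = 1.61e-08, limma). RBP7 and SSTR2, like MFAP5 below, were tested through abdominal fat only. VIM and MFAP5, genes of mesenchymal cells and their matrix, were at 3184 to 3351 and 621 to 834 FPKM in abdominal fat and at 7.77 to 11.5 and 0.23 to 0.33 FPKM in liver. The 8 fibroblast markers summed to 7125 to 10410 FPKM in abdominal fat and 127 to 206 FPKM in liver, and their part in these differences was not tested.

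The 3 tested markers of B cells and plasma cells, 1 of them tested through liver only, were higher in HFD liver, where 10.8% of all genes tested were called, and on ND their adjusted p ran from 0.113 to 0.899 (limma); the interaction of tissue and diet was not called for any of these 3 genes. They were led by the immunoglobulin light chain gene IGLL1 at 25.8, 46.7 and 64.2 FPKM in liver and 7.56, 12.1 and 9.35 FPKM in abdominal fat. On ND the 5 marker genes of that list took 0.795% of the summed FPKM in abdominal fat replicate 1 and 0.00341% and 0.01% in the other 2, and 0.107%, 0.0593% and 0.0109% in ND liver.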
